A study of Mus musculus with 6 samples.

Results

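The homeobox cluster (Hox) genes were followed on Affymetrix mouse arrays of sorted fetal liver cells. The arrays were labelled wild type or knockout for the transcription factor Eklf (gene symbol Klf1). Members were all probe sets listed for a single gene named Hoxa, Hoxb, Hoxc or Hoxd with a number, which gave 48 of 45101 probe sets and 33 of the 39 such genes in RefSeq. Cluster A was covered by 16 probe sets of 9 genes, cluster B by 11 of 9, cluster C by 11 of 7 and cluster D by 10 of 8. The other genes were not analysed here, and 3 probe sets shared by several Hox genes and 5 of Hox antisense transcripts were left out. The labels name 3 wild-type arrays and 3 Eklf knockout arrays, each from the liver of 1 C57BL/6 embryo at embryonic day 13.5. Live cells were stained for CD71 and Ter119 and sorted as early erythroid progenitors. Values are MAS5 signals, probe set intensities on a linear scale that give every array the same trimmed mean.

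Hox genes encode transcription factors with a homeodomain, a DNA-binding fold, and lie side by side in 4 clusters, where their order follows the order in which they act along the body axis. Low-numbered members are anterior genes and high-numbered members posterior genes. In blood formation Hoxa9 and Hoxb4 are known as regulators of stem and progenitor cells. Hox proteins bind DNA with cofactors of the TALE family, and the clusters are kept active by trithorax-type and MLL proteins and kept silent by Polycomb proteins. Mesenchymal cells such as fibroblasts also carry Hox transcripts.

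The promoters of 4 genes with several probe sets in these data, Hoxa3, Hoxa5, Hoxa9 and Hoxb4, are shown because Eklf binds CACCC elements. Each is the 250 bases before the start of transcription in RefSeq on GRCm38.p6, 5′ to 3′ on the gene's strand, with CACCC on either strand in capitals.
Hoxa3, chr6:52213068-52213317, minus strand: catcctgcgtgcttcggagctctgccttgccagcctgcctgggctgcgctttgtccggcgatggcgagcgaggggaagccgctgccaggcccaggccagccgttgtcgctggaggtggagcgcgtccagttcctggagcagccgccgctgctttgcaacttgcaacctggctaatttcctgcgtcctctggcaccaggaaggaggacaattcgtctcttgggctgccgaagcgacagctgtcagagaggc
Hoxa5, chr6:52204588-52204837, minus strand: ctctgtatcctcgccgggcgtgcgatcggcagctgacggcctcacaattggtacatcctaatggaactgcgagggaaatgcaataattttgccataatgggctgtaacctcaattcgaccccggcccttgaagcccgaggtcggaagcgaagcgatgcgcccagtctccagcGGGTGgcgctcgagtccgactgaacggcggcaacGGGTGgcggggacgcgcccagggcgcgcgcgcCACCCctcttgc
Hoxa9, chr6:52227371-52227620, minus strand: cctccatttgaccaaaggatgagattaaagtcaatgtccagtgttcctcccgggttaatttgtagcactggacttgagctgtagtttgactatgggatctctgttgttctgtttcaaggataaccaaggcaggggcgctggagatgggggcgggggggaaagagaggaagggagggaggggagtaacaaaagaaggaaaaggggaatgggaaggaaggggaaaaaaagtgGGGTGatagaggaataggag
Hoxb4, chr11:96318017-96318266, plus strand: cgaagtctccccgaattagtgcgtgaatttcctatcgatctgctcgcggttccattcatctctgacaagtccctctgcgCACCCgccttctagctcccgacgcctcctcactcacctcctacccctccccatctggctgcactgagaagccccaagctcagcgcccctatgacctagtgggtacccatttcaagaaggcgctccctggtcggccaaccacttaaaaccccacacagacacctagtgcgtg
CACCC was found 3 times before Hoxa5, 1 time before Hoxa9, 1 time before Hoxb4 and 0 times before Hoxa3. Searched on both strands, CACCC was present in 15 of 24 such windows of 22 Hox genes (62.5%) and in 52.0% of 32851 promoters of the same length. CCNCNCCC, a longer Eklf consensus that can overlap CACCC, was present in 17 of 24 (70.8%) and in 45.9% of all. GATAA, the core bound by GATA factors, was present in 5 of 24 (20.8%) and in 22.6% of all. TGATTNAT, bound by Pbx and Hox proteins together, was present in 2 of 24 (8.33%) and in 2.82% of all. These matches describe letters and show no binding.

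The groups of arrays differed well beyond the Hox genes. The median signal was 97.7 to 139.7 on the wild-type arrays and 204 to 218 on the knockout-labelled arrays. Klf1 gave 2508, 2706 and 4029.7 on the wild-type arrays and 3505, 1391 and 2545 under the knockout label, so that its signal overlapped between the groups (-0.38 ± 0.32, SE, limma adjusted p = 0.358). Where its probe set lies relative to the deletion is not given in the sources used here, and the groups are named by their labels. The brightest erythroid markers, Slc4a1, Tfrc and Alas2, had wild-type means of 5677, 5828 and 1357, and 9 of 11 erythroid markers tested were higher on the knockout-labelled arrays. The myeloid genes S100a8 and Mpo, which mark no erythroid cell, had wild-type means of 29322 and 24249. Marker lists of further cell types shifted between the groups too. Of these, 10 of 10 hepatocyte, 11 of 12 stromal, 8 of 8 megakaryocyte, 6 of 7 macrophage and 6 of 10 endothelial markers were higher, and 8 of 10 lymphoid, 6 of 9 myeloid, 5 of 11 stem and progenitor and 3 of 5 mast cell markers were lower. Of the stem and progenitor markers 2 were higher, and of the lymphoid markers 1. Over all genes at their brightest probe set, as the markers were taken, 26.1% were called higher and 19.7% lower, and 14.1% and 32.9% among the brightest. In bulk RNA, fewer cells of a type and less RNA per cell cannot be told apart.

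Of the 48 Hox probe sets, 16 of 10 genes had a mean log2 signal of at least 6.62 (a signal of 98.6, the 40th percentile of all probe sets) and were tested. Of these, 11 were higher and 1 was lower on the knockout-labelled arrays at a limma adjusted p under 0.05, and 4 did not pass. Over all 27023 probe sets tested, 28.1% were called higher and 15.7% lower. The median log2 difference was 1.22 for the tested Hox probe sets and 0.32 for all tested. A probe set can pass the level filter through the knockout-labelled arrays alone, so these counts describe the tested probe sets only. The wild-type mean log2 signal lay under the filter for 6 of the tested probe sets and for 5 of the 11 called higher, those of Hoxa3 (1452421_at), Hoxb2, Hoxb3, Hoxb4 (1451761_at) and Hoxd13. The member just inside the filter was Hoxd13 1440626_at, with a mean log2 signal of 6.83 and a difference of 1.57. The member just outside was Hoxb1 1453501_at, with 6.61 and 1.81.

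The background depended on brightness, here in 4 equal classes of the tested probe sets by mean log2 signal. In the dimmest class (signals of 98.6 to 184) the median log2 difference was 0.90, with 36.4% called higher and 4.43% lower, and this class held 10 Hox probe sets, 7 of them called higher. In the second class (184 to 383) the median was 0.66, with 37.5% higher and 7.73% lower, and of 4 Hox probe sets 2 were called higher and 1 lower. In the third class (383 to 991) the median was 0.087, with 23.0% higher and 19.2% lower, and both Hox probe sets, of Hoxa5 and Hoxa9, were called higher. No Hox probe set lay in the brightest class, where 15.6% were called higher and 31.5% lower.

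Most of the higher calls depended on the scaling of the arrays. After quantile normalization, which gives all arrays the same distribution, 3 Hox probe sets were called higher and 1 lower, against 15.4% and 17.7% of all tested. After cyclic loess, which removes differences that follow brightness, the counts were 3 and 1, against 15.9% and 17.2%. After centring each array on its median they were 3 and 1, against 7.8% and 37.9%. These scalings moved the median difference of all tested probe sets from 0.32 to 0.0061, 0.032 and -0.49. For the 16 tested Hox probe sets the median moved from 1.22 to 0.71, 0.68 and 0.41, and so stayed above that of all tested. Under the deposited scaling, the choice of features changed the counts as well. Without a level filter 20 of the 48 were called higher and 1 lower, against 21.4% and 9.4% of all. At the brightest probe set per gene, which for Hoxa9 is 1421579_at, 10 of 10 Hox genes were higher, against 27.9% higher and 20.8% lower of all genes, and on means over the probe sets of each gene 7 of 8 were higher, against 27.4% and 16.9%.

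**Figure D1:**
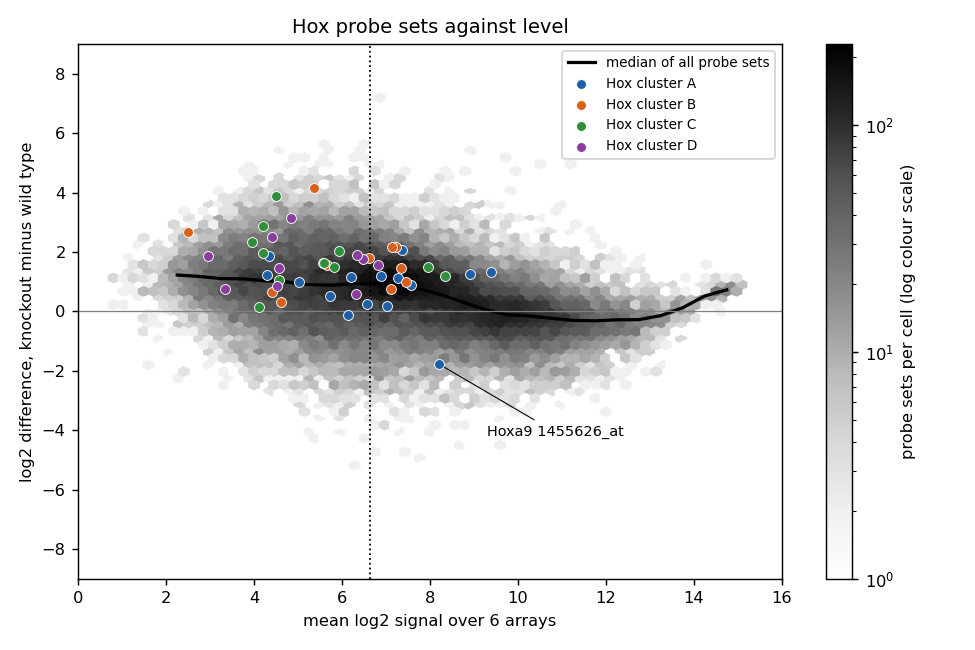
Log2 difference (knockout minus wild type) of each probe set against its mean log2 signal over 6 arrays. Grey cells count all probe sets on a log colour scale, the black line is their median, coloured points are the 48 Hox probe sets by cluster and the dotted line marks the level filter at 6.62; dim probe sets as a whole lie above 0, and Hoxa9 1455626_at lies at -1.78.

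Hoxa9, a posterior gene of cluster A that keeps blood progenitors immature, had 2 probe sets that moved in opposite directions. Probe set 1455626_at gave 644, 648 and 397 on the wild-type arrays and 170.4, 96.1 and 249.9 under the knockout label. Every knockout-labelled value lay below every wild-type value, with means of 563 ± 144 and 172 ± 76.9 (SD, n = 3). It fell by 1.78 on the log2 scale (SE 0.38, limma adjusted p = 0.00653), which is 3.43-fold lower, and no other tested Hox probe set was called lower. It was called lower also after quantile normalization (-2.28, limma adjusted p = 0.00199), cyclic loess (-2.28, limma adjusted p = 0.00159) and median centring (-2.59, limma adjusted p = 1.18e-04). It was called lower in 18 of 18 other fits, the 6 leave-one-out fits included, with differences from -2.59 to -1.41.

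The other Hoxa9 probe set, 1421579_at, gave 248, 361 and 329 on the wild-type arrays and 714, 713 and 792 under the knockout label. Here every knockout-labelled value lay above every wild-type value, with means of 313 ± 58.4 and 739.7 ± 45.3 (SD, n = 3) and a log2 change of 1.26 ± 0.22 (SE, limma adjusted p = 0.00264). It was called higher also after cyclic loess (1.04, limma adjusted p = 0.00895) and not after median centring (0.44, limma adjusted p = 0.211). Within an array the log2 ratio of 1455626_at to 1421579_at ran from 0.27 to 1.38 on the wild-type arrays and from -2.89 to -1.66 on the knockout-labelled arrays. The difference of the group means of this ratio was -3.04, and a constant factor per array cancels in it. In a fit on the mean of both probe sets, Hoxa9 had a log2 change of -0.26 ± 0.25 (SE, limma adjusted p = 0.414). The arrays thus gave no single direction for Hoxa9 RNA, and which part of the transcript each probe set reads is not given in the sources used here.

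Most lymphoid and some progenitor markers were lower in the same direction as Hoxa9 1455626_at. Of 10 lymphoid markers tested 8 were called lower and 1, Dntt, higher, and of 11 stem and progenitor markers 5 were called lower and 2, Slamf1 and Mecom, higher. The lymphoid markers summed to 22614 to 33678 on the wild-type arrays and 1060 to 1756 under the knockout label, over 12 genes, and the pre-B cell gene Vpreb1 had means of 8588 and 52.2. The stem and progenitor markers summed to 13397 to 15060 on the wild-type arrays and 6545 to 7099 under the knockout label, over 12 genes, with means of 4086 and 1245 for Kit, the stem cell factor receptor gene. The part of these cells in the result of either Hoxa9 probe set was not tested.

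**Figure D2:**
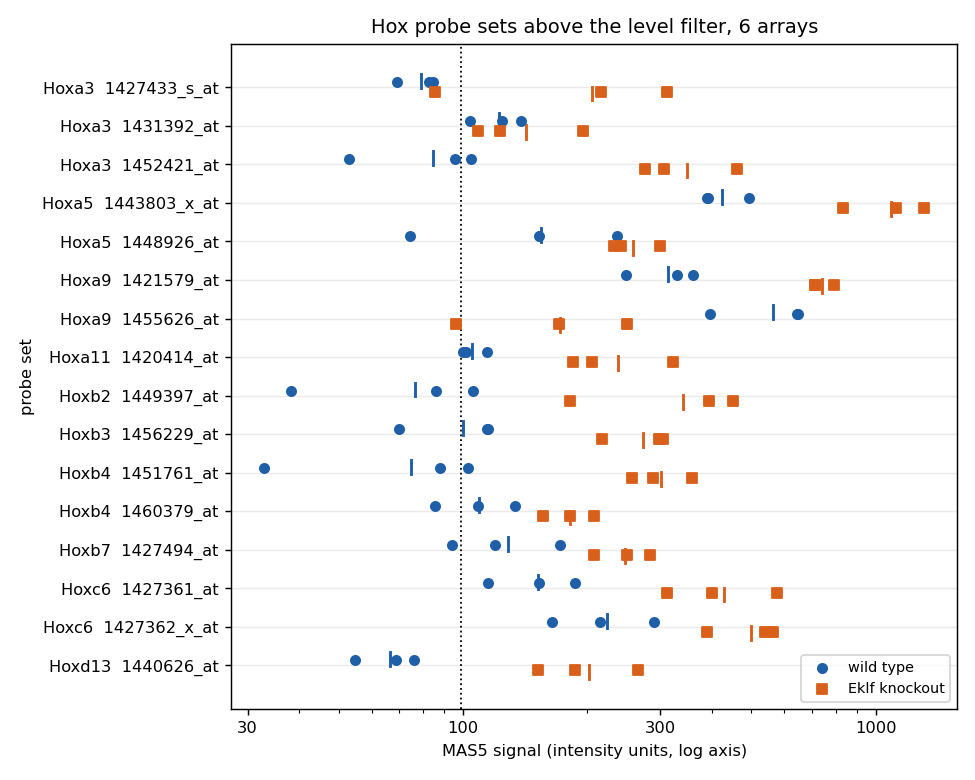
MAS5 signal (log axis) of the 16 tested Hox probe sets on each of 6 arrays, with blue circles for wild type, orange squares for Eklf knockout, short bars for the group means and a dotted line at the level filter of 98.6. Hoxa9 1455626_at is the only probe set whose knockout-labelled values all lie below its wild-type values.

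Hoxa5, a central gene of cluster A, was read by 2 probe sets. Probe set 1443803_x_at gave 389, 493 and 393 on the wild-type arrays and 834, 1118 and 1313 under the knockout label. The groups did not overlap, and the log2 change was 1.34 ± 0.23 (SE, limma adjusted p = 0.00211), a 2.53-fold increase. It was called higher also after quantile normalization (1.25, limma adjusted p = 0.00403) and cyclic loess (1.29, limma adjusted p = 0.00296), and not after median centring (0.53, limma adjusted p = 0.121). The suffix _x_at marks probes that may bind other transcripts too. Probe set 1448926_at gave 236, 153 and 74.5 against 301, 241 and 232. Its groups overlapped, and it did not pass (0.88 ± 0.43, SE, limma adjusted p = 0.123).

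Hoxa3, an anterior gene of cluster A, had 3 tested probe sets, of which 1 rose. Probe set 1452421_at gave 105, 53.0 and 95.3 on the wild-type arrays and 276, 462 and 306 under the knockout label. The groups did not overlap, with a log2 change of 2.07 ± 0.39 (SE, limma adjusted p = 0.00345), and the probe set was called higher also after quantile normalization (1.40), cyclic loess (1.27) and median centring (1.26). Its wild-type mean of 84.3 ± 27.5 (SD, n = 3) lay under the level of the filter. Probe set 1427433_s_at gave 84.7, 82.6 and 69.2 against 216, 313 and 85.3, with knockout-labelled array 3 next to the wild-type values, and did not pass (1.19 ± 0.51, SE, limma adjusted p = 0.0838). Without that array it was called higher (1.73, limma adjusted p = 0.0161). Probe set 1431392_at gave 104, 138 and 124 against 123, 108 and 195 and did not pass (0.18 ± 0.38, SE, limma adjusted p = 0.711). Its sign turned after quantile normalization (-0.65), cyclic loess (-0.68) and median centring (-0.63).

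Hoxa11, a posterior gene known from limb and uterus, gave 114, 101 and 100.03 on the wild-type arrays and 205, 323 and 184 under the knockout label. The groups did not overlap, with a log2 change of 1.13 ± 0.35 (SE, limma adjusted p = 0.0272). The call was lost after cyclic loess (0.32, limma adjusted p = 0.505) and under both other scalings. It was lost too in 3 of the 6 leave-one-out fits, those without wild-type array 1, wild-type array 2 or knockout-labelled array 2, where the difference ran from 0.89 to 1.19.

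In cluster B, 4 of 5 tested probe sets rose. Hoxb2, an anterior gene active in the hindbrain, gave 38.2, 85.8 and 106 on the wild-type arrays and 394, 450.3 and 181 under the knockout label, a log2 change of 2.18 ± 0.51 (SE, limma adjusted p = 0.00893). Hoxb3, its neighbour, gave 115, 115 and 69.7 against 299, 305 and 217, a log2 change of 1.47 ± 0.35 (SE, limma adjusted p = 0.0102). The groups overlapped in neither tested probe set, and the wild-type mean log2 signals of both lay under the filter. A second Hoxb3 probe set, 1427605_at, lay under the filter and was not tested. It gave 39.9, 63.8 and 10.1 against 163, 24.4 and 164, with overlapping groups. After cyclic loess the differences did not pass for Hoxb2 (1.35, limma adjusted p = 0.0805) or Hoxb3 (0.67, limma adjusted p = 0.125), and after median centring Hoxb2 was called higher (1.37, limma adjusted p = 0.0421).

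Hoxb4, whose forced expression expands blood stem cells, had 2 tested probe sets. Probe set 1451761_at gave 87.9, 33.0 and 103 on the wild-type arrays and 359, 256 and 288 under the knockout label, a log2 change of 2.16 ± 0.47 (SE, limma adjusted p = 0.00703). Probe set 1460379_at gave 109, 85.6 and 133 against 181, 208 and 156 and did not pass (0.75 ± 0.35, SE, limma adjusted p = 0.110). The groups overlapped in neither, and the wild-type mean log2 signal of the first lay under the filter. After cyclic loess the first did not pass (1.31, limma adjusted p = 0.0889), and after median centring it was called higher (1.34, limma adjusted p = 0.0450). The second turned below 0 after quantile normalization (-0.068), cyclic loess (-0.10) and median centring (-0.066).

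Hoxb7, a central gene of cluster B, gave 119, 172 and 94.1 on the wild-type arrays and 284, 207 and 249 under the knockout label. The groups did not overlap, with a log2 change of 0.98 ± 0.34 (SE, limma adjusted p = 0.0457). The call was lost after cyclic loess (0.20, limma adjusted p = 0.650) and both other scalings, with the replicate number as a block (limma adjusted p = 0.0674), without a level filter (0.0640), with the filter at the 20th percentile (0.0532), and in 5 of the 6 leave-one-out fits. It held without wild-type array 2 (1.21).

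Among cluster C genes only Hoxc6 was tested, a central gene known from mesenchyme of the trunk, and both tested probe sets rose. Probe set 1427361_at gave 153, 187 and 115 on the wild-type arrays and 400.3, 313 and 576 under the knockout label, a log2 change of 1.49 ± 0.33 (SE, limma adjusted p = 0.00732). Probe set 1427362_x_at gave 164, 291 and 215 against 564, 539 and 391, a log2 change of 1.18 ± 0.29 (SE, limma adjusted p = 0.0122). The groups overlapped in neither, and after cyclic loess neither passed (0.88, limma adjusted p = 0.0502 and 0.74, limma adjusted p = 0.0807). In cluster D, Hoxd13, a posterior gene known from the digits, gave 68.9, 75.8 and 54.6 against 186, 152 and 266, a log2 change of 1.57 ± 0.39 (SE, limma adjusted p = 0.0122). Its groups did not overlap, each wild-type value lay under the level of the filter, and after cyclic loess it did not pass (0.69, limma adjusted p = 0.184).

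Stromal and mesenchymal markers rose alongside these Hox genes. They summed to 3259 to 3896 on the wild-type arrays and 40918 to 59581 under the knockout label, over 14 genes. Dlk1 had means of 943 and 22131, Mest of 637 and 4261, and the collagen gene Col1a2 of 335 and 5702. Dlk1 alone thus held a large part of the sum under the knockout label, and which cells its RNA came from was not tested. Of the 12 genes of this list that were tested, 11 were called higher, and 8 after cyclic loess. The hepatocyte markers Alb and Afp rose as well (Alb from 2272 to 40107). The part of these cells in the Hox differences was not tested.

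**Figure D3:**
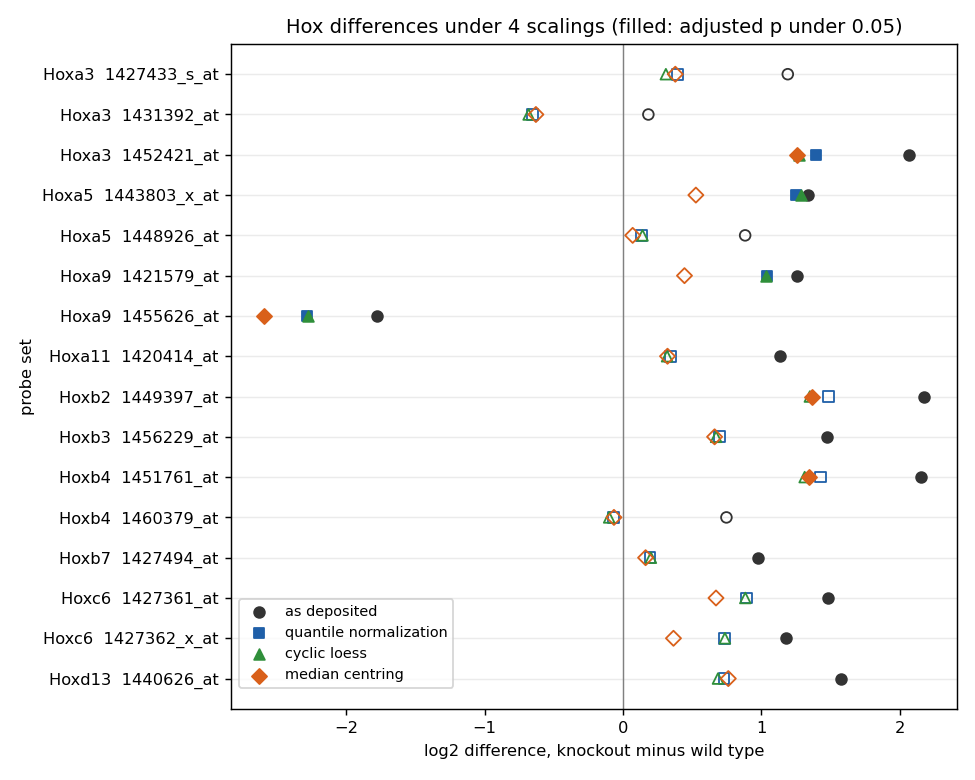
Log2 difference (knockout minus wild type) of the 16 tested Hox probe sets under the deposited scaling, quantile normalization, cyclic loess and median centring, with filled symbols for a limma adjusted p under 0.05. Hoxa9 1455626_at (lower) and Hoxa3 1452421_at (higher) are filled under all 4 scalings, and Hoxa11, Hoxb3, Hoxb7, Hoxc6 and Hoxd13 under the deposited scaling alone.

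The 32 Hox probe sets under the filter covered 27 genes, 23 of them with no brighter probe set. Their wild-type means ran from 2.23 to 87.3 and their knockout-labelled means from 14.0 to 184. Differences were above 0 for 31 of the 32, against 14372 of all 18014 probe sets under the filter. The knockout-labelled values lay above all wild-type values for 18 and below them for 0, against 33.9% and 3.84% of all probe sets under the filter. The median difference was 1.58, against 0.99 for all probe sets under the filter. With every probe set tested without a filter, limma called 10 of the 32 higher and 0 lower (the lone difference below 0 there was -0.12, at Hoxa10), against 15.5% higher among all under the filter.

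Of these dim members, 3 genes were singled out after their values were seen. Hoxb9, a posterior gene, had the largest difference and gave 6.31, 18.3 and 8.30 on the wild-type arrays and 207, 105 and 239.98 under the knockout label, all wild-type values far below all others. Hoxc8, a central gene, gave 2.11, 52.5 and 1.79 against 103, 80.0 and 77.6, and its wild-type array 2 stood far above the other two. Hoxa10, the neighbour of Hoxa9 and like it a regulator of blood progenitors, gave 66.4, 89.9 and 65.0 against 144, 28.1 and 74.1 for 1431475_a_at and 34.8, 84.5 and 29.0 against 66.7, 57.3 and 66.5 for 1446408_at. The groups overlapped in both Hoxa10 probe sets.

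By cluster, dim members included, the difference was above 0 for 14 of 16 probe sets of cluster A, 11 of 11 of B, 11 of 11 of C and 10 of 10 of D. Over all probe sets, control probe sets left out, it was above 0 for 31084 of 45037. The knockout-labelled values lay above all wild-type values for 31 of the 48 and below them for 1, against 36.0% and 13.6% of all probe sets. After each of the 3 other scalings these counts were 14 and 2, against 19.5% and 19.4% of all probe sets after quantile normalization, 19.6% and 19.3% after cyclic loess and 13.3% and 30.7% after median centring. By position, the difference was above 0 for 11 of 11 probe sets of paralogue groups 1 to 3, 20 of 20 of groups 4 to 8 and 15 of 17 of groups 9 to 13. Both differences below 0 were in cluster A, at Hoxa9 1455626_at and Hoxa10 1431475_a_at. Most dim probe sets of the whole array lay above 0 too (14372 of 18014 under the filter). Differences among the clusters or positions were not tested.

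**Figure D4:**
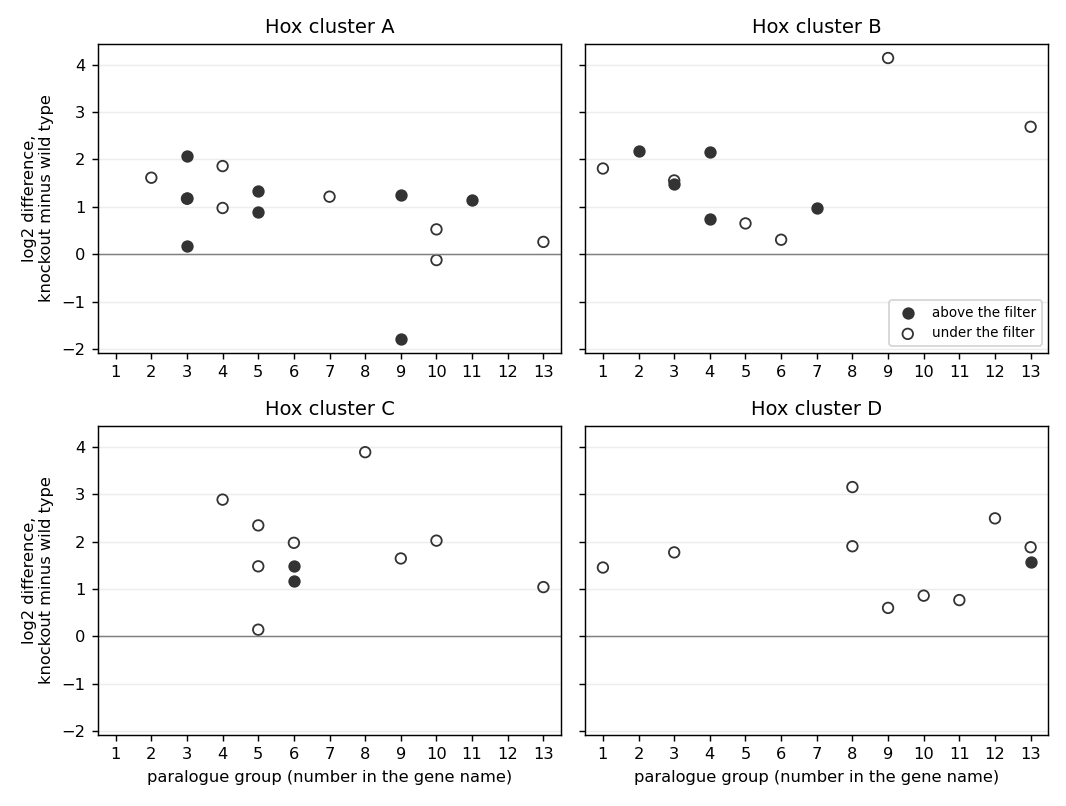
Log2 difference (knockout minus wild type) of the 48 Hox probe sets by paralogue group, the number in the gene name, in a panel per cluster, with filled circles for probe sets above the level filter and open circles for those under it. Differences lie above 0 in every cluster except at Hoxa9 1455626_at and a Hoxa10 probe set.

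Hox proteins act with TALE cofactors, and of 10 tested genes of this family 3 rose, 2 fell and 5 did not pass, with a median log2 difference of -0.25. Over 12799 genes taken, like these, at their brightest probe set, 26.1% were called higher and 19.7% lower, with a median of 0.14. Meis2, a cofactor active in mesenchyme and neural tissue, gave 63.98, 77.4 and 31.7 on the wild-type arrays and 364, 341 and 244 under the knockout label, a log2 change of 2.53 ± 0.44 (SE, limma adjusted p = 0.00230). Meis3 gave 44.8, 60.3 and 56.9 against 198, 282 and 259, a log2 change of 2.19 ± 0.37 (SE, limma adjusted p = 0.00218). Pknox1, a partner of Pbx proteins, fell by 0.93 on the log2 scale (SE 0.21, limma adjusted p = 0.00820), and Pbxip1, which binds and inhibits Pbx, fell by 0.71 on the log2 scale (SE 0.19, limma adjusted p = 0.0165). Each wild-type value of Meis2 and Meis3 lay under the level of the filter, which these genes passed through the knockout-labelled arrays. All 4 genes were called in the same direction under each of the 3 other scalings.

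Meis1, the cofactor of Hoxa9 in progenitors, was singled out after its values were seen. Its brightest probe set gave 512, 500.2 and 344 on the wild-type arrays and 337, 549.5 and 285 under the knockout label. The groups overlapped, and it did not pass (-0.25 ± 0.30, SE, limma adjusted p = 0.525), and its remaining probe sets stood at 1.05 to 1.24. After median centring the brightest one was called lower (-1.06, limma adjusted p = 0.0103).

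Of 13 tested genes reported as targets of Hoxa9 or Meis1 in blood cells, 11 fell and 2 rose, with a median log2 difference of -1.79. The list was drawn up from general knowledge, with earlier results of these data known. Of these genes 8 lay in the brightest class, where 32.9% of genes were called lower and 14.1% higher. Myb, a transcription factor of immature blood cells, gave 10655, 11629 and 9897 on the wild-type arrays and 2882, 2762 and 2193 under the knockout label, a log2 change of -2.05 ± 0.16 (SE, limma adjusted p = 4.45e-05). Gfi1, a repressor in stem cells and granulocyte precursors, gave 2116, 2114 and 2676 against 305, 420.1 and 403, a log2 change of -2.62 ± 0.20 (SE, limma adjusted p = 3.82e-05). In neither did the groups overlap. Erg, an ETS factor gene, fell by 2.47 on the log2 scale (SE 0.21, limma adjusted p = 6.12e-05). Sox4 fell by 2.50 on the log2 scale (SE 0.22, limma adjusted p = 6.28e-05), and its remaining probe sets ran from -3.08 to 2.37.

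After quantile normalization or cyclic loess 10 of these genes were called lower and 1 higher. Of all tested probe sets 17.7% and 17.2% were called lower under these scalings, and 15.4% and 15.9% higher. After median centring 11 of the genes were lower and 0 higher, against 37.9% and 7.8% of all tested probe sets. Cd34, Flt3 and Mecom also stand in the stem and progenitor marker list. The part of progenitor and lymphoid cells in this count was not tested.

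**Figure D5:**
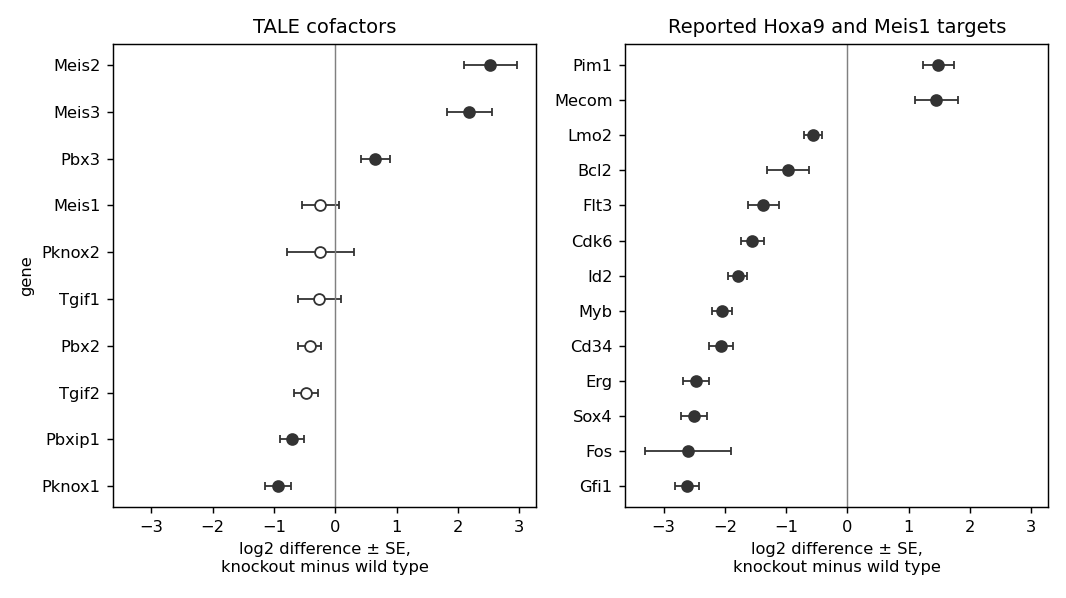
Log2 difference ± SE (knockout minus wild type, 3 arrays per group) of the 10 tested TALE cofactor genes and the 13 tested genes reported as Hoxa9 or Meis1 targets, with filled circles for a limma adjusted p under 0.05. Meis2 and Meis3 lie above 0 and Pknox1 and Pbxip1 below it, and 11 of the 13 reported targets lie below 0.

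Of 16 tested trithorax-type and MLL complex genes 1 rose and 5 fell, with a median of -0.22. Of these genes 14 lay in the brightest class, where 14.1% of all genes were called higher and 32.9% lower, so the count of lower genes was near the background. Mllt3, a fusion partner of MLL in leukaemia, rose from 368 ± 71.5 to 1922 ± 282 (SD, n = 3), a log2 change of 2.39 ± 0.21 (SE, limma adjusted p = 7.02e-05), and was called higher under all 3 other scalings. Dpy30, a core subunit of these complexes, fell by 0.80 on the log2 scale (SE 0.15, limma adjusted p = 0.00353). Wdr5, another core subunit, fell by 0.51 on the log2 scale (SE 0.15, limma adjusted p = 0.0215), and Aff1, of the elongation complex, fell by 0.59 on the log2 scale (SE 0.17, limma adjusted p = 0.0234). Both of the latter lost their calls after cyclic loess, the other tested probe set of Wdr5 gave 0.32, and those of Aff1 gave 1.66 to 1.78. The list's count was 1 higher and 1 lower after quantile normalization or cyclic loess, and 1 and 12 after median centring. Of all tested probe sets, quantile normalization called 15.4% higher and 17.7% lower, and cyclic loess 15.9% and 17.2%. Median centring called 7.8% higher and 37.9% lower.

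Of 20 tested Polycomb genes 2 rose and 7 fell, with a median of -0.39. Over all genes 26.1% were called higher and 19.7% lower, and 14.1% and 32.9% in the brightest class, which held 8 of the 20. After cyclic loess 1 Polycomb gene was called higher and 5 lower, against 15.9% and 17.2% of all tested probe sets. Kdm2b, which brings a Polycomb complex to CpG islands, gave 4009.8, 3805 and 4187 on the wild-type arrays and 1911, 1532 and 1464 under the knockout label, a log2 change of -1.30 ± 0.16 (SE, limma adjusted p = 3.98e-04). Pcgf5, of Polycomb complex 1, fell by 0.96 on the log2 scale (SE 0.17, limma adjusted p = 0.00258), and Eed, a core subunit of Polycomb complex 2, fell by 0.85 on the log2 scale (SE 0.16, limma adjusted p = 0.00315). Pcgf2 had a log2 change of 2.24 ± 0.42 (SE, limma adjusted p = 0.00333) from a dim wild-type mean of 73.7 ± 38.8 (SD, n = 3), and did not pass after cyclic loess (1.40, limma adjusted p = 0.0520).

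Retinoic acid switches on anterior Hox genes through its receptors. Of 7 tested genes of this pathway 1 rose and 1 fell, with a median of 0.19, and 9 lay under the filter. Among all genes at their brightest probe set 26.1% were called higher and 19.7% lower, so these genes were not called more often than the background. The receptor gene Rxrb fell by 0.94 on the log2 scale (SE 0.16, limma adjusted p = 0.00211). The receptor gene Rarb had a log2 change of 1.53 ± 0.40 (SE, limma adjusted p = 0.0152), from a wild-type mean under the level of the filter, and its call was lost after cyclic loess (0.69, limma adjusted p = 0.167). Of the 8 Cdx, ParaHox and Evx genes, relatives and regulators of the clusters, 7 lay under the filter. The tested gene, Evx2, at the end of cluster D, had a log2 change of 1.10 ± 0.30 (SE, limma adjusted p = 0.0174) and did not pass after cyclic loess (0.41, limma adjusted p = 0.313).

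The genes next to the clusters were taken from the RefSeq gene order on GRCm38.p6, 3 protein-coding genes on each side. Of 24 such genes 20 were tested, 3 rose and 3 fell, with a median log2 difference of 0.067. Over all genes at their brightest probe set 26.1% were called higher and 19.7% lower, so the neighbours were not called more often than the background. Beside cluster A, Snx10, a sorting nexin gene, fell by 2.27 on the log2 scale (SE 0.24, limma adjusted p = 1.93e-04), and Skap2, an adaptor gene of blood cells, fell by 1.31 on the log2 scale (SE 0.16, limma adjusted p = 4.08e-04). Beside cluster B, Cbx1, a heterochromatin protein gene, fell by 1.16 on the log2 scale (SE 0.25, limma adjusted p = 0.00598). Beside cluster C, Calcoco1 rose by 1.63 and Atf7 by 0.85 on the log2 scale, and beside cluster D Evx2 rose.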

How the data were processed

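Total RNA of sorted cells from 6 livers was hybridised to Affymetrix mouse arrays. Per the submitters' processing notes, the deposited intensity values are MAS5 signals made in Affymetrix Expression Console. Each array's trimmed mean (2% cut from each end) was 500.0. Gene names came from the platform annotation, with symbols updated through RefSeq, and 34958 of 45101 probe sets had 1 gene. Signals were floored at 1, taken as log2, and tested without further scaling in limma 3.58.1 (R 4.3.3), with a trend in the prior variance, over 27023 probe sets at or above the 40th percentile of mean log2 signal, with Benjamini-Hochberg adjustment over all of them. Differences are knockout minus wild type, on the log2 scale. The fit was also run on simulated data, with independent noise and no group shift that follows brightness. That run therefore does not bear on the scaling of the arrays.

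Each array is 1 liver, with 3 per group, so that an exact permutation test cannot go below p = 0.1, and the number of arrays limits the precision. Replicate numbers were not taken as pairs. Values per array are given for tested Hox probe sets. Of each pathway list the called genes with the 4 smallest p are named, and of each marker list counts and its brightest genes are used. List genes stand at their brightest probe set. Other scalings, filters, offsets, variance models, summaries per gene, a replicate block and leaving out each array were tried. The members and lists were chosen with earlier results of these data known, and the neighbouring genes after the files were seen.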

Additional observations from a re-analysis of the deposited data

How the results depend on the processing

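Of the alternatives for single Hox probe sets, 253 kept direction and side of the threshold, 40 lost the call, 3 gained it and 7 turned sign. The filter, variance trend, robust variance, replicate block, brightest probe set and 0.01 threshold settings reuse the same log2 difference. Direction could not turn in them. A smaller difference counted as kept where the probe set stayed uncalled, as for Hoxa5 1448926_at (0.88 as deposited, 0.069 after median centring). The sign turned for Hoxa3 1431392_at after quantile normalization (-0.65), cyclic loess (-0.68), median centring (-0.63) and without knockout-labelled replicate 3 (-0.068; 0.35 at most over the leave-one-out fits), and for Hoxb4 1460379_at after the same 3 scalings (-0.068, -0.10 and -0.066). Hox probe sets called, 12 as reported with 11 higher, were 4 with 3 higher after each of the 3 scalings. They were 21 with 20 higher of 48 without a filter, where 9644 of all 45037 were higher and 4232 lower. At the 60th percentile they were 5 with 4 higher of 5, where 4268 of all 18007 were higher and 3828 lower. At an adjusted p under 0.01 they were 7 with 6 higher. With the mean of probe sets per gene 7 of 8 genes were called, 7 higher and 0 lower, and at the brightest probe set per gene 10 of 10 were higher and 0 lower. Those 3 last-named settings test fewer features or ask more. They called 5032 of 11355, 6232 of 12799 and, at 0.01, 6147 of 27023 features in all, against 11838 of 27023 as reported. Pathway list genes called at 0.01 were 20. Hox probe sets with groups apart were 14 higher and 2 lower after each scaling, against 31 and 1. Leaving out 1 array gave 9 to 11 Hox probe sets higher and 1 lower. With the replicate number as a block 10 were higher and 1 lower, and 7523 and 4306 of all tested. Deviations of same-numbered arrays correlated at 0.042 to 0.076, so the numbers were not taken as pairs. The cause of these changes was not tested. Dim signals limit the wild-type values of most members.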
